A study of Mus musculus with 21 samples.

Results

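The proteasome genes described here are the 48 genes, of 19096 in the deposited gene matrix, whose symbol is Psm followed by a letter from a to g and a number. They were measured by RNA sequencing of freeze-clamped heart tissue from 21 male C57BL/6NJ mice, 8 to 10 weeks old when they were assigned to a diet. The 4 groups crossed diet with renin: chow with the control vector (chow control, 4 hearts), chow with AAV-Renin (chow renin, 6 hearts), chow replaced by a high-fat diet (60% of kcal) with the control vector (high-fat control, 6 hearts) and that diet with AAV-Renin (high-fat renin, 5 hearts). AAV-Renin is an adeno-associated virus that carries renin, the enzyme that starts the angiotensin cascade and raises blood pressure. The diets ran for 10 weeks, hearts were taken 6 weeks after injection, and the sample labels say novirus where the series description says null vector. The promoter that drives renin in the vector is not given in the sources used here. The series combines obesity and hypertension to model heart failure in which the ejection fraction is preserved, and asks how the pair, and either alone, alters cardiac RNA levels.

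The proteasome is the large protease that degrades ubiquitin-tagged proteins in the cytosol and nucleus. Its barrel-shaped core particle is built from rings of alpha and beta subunits, and only the beta subunits of types 1, 2 and 5 cut peptide bonds. Interferon-induced copies of these catalytic subunits, Psmb9, Psmb10 and Psmb8, replace Psmb6, Psmb7 and Psmb5 in the immunoproteasome, which is abundant in immune cells and alters the peptides made for antigen presentation. A regulatory particle of ATPases and non-ATPase subunits binds, unfolds and threads in the substrate, and other caps (Psme1 with Psme2, Psme3, Psme4) open the core without ubiquitin. In cardiac muscle the proteasome turns over sarcomeric and misfolded proteins.

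By role, the 48 genes included 7 alpha subunits, the testis-restricted alpha subunit Psma8, 7 constitutive beta subunits, 3 induced beta subunits and the thymus-restricted Psmb11. The others were 6 ATPases, 14 non-ATPase regulatory genes (Psmd), 5 activator or inhibitor genes and 4 assembly chaperones (Psmg). The Psmd class follows the letter in the symbol, so it also holds Psmd5, which acts as an assembly chaperone. In total 47 entered the tests. Psmb11 did not pass the filter on low counts, with reads in 17 of 21 libraries and a mean of 0.023 TPM (the deposited level per transcript, corrected for length and library size). Library totals ran from 18.7 to 29.3 M estimated reads (mega reads). Chow control libraries reached 21.4 M at most and all others held at least 22.8 M. In comparisons with chow control, depth and group therefore cannot be told apart in the full counts. With counts thinned at random to the smallest library, the proteasome differences from chow control given further on still passed their tests. These are whole-tissue samples, in which fewer cells of a type and less RNA per cell cannot be told apart. Defining cardiomyocyte genes were abundant in all groups, their 7 summed levels ranging from 43091 to 64908 CPM (reads scaled to library size with TMM factors). In each group some hearts also held atrial markers: the mean log2 CPM of the 3 tested was 6.14 to 7.37 in chow control replicate 3, chow renin replicates 1 and 3, high-fat control replicate 3 and high-fat renin replicate 3, and at most 0.96 in the other 16 hearts. An additional fit without these 5 hearts was chosen after the data were seen.

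The core and regulatory genes are often described as sharing a promoter element bound by Nfe2l1 (TGACNNNGC), so bases from the 250 before 6 start sites are shown. Psmb6 and Psmb5 are constitutive catalytic subunits that hold this motif, and Psmb10, Psmd8, Psme4 and Psme1 carry the differences between groups given further on. The sequences are from RefSeq, build GRCm38.p6, written 5′ to 3′ on the gene's strand, with annotated exons left out. Only the Psmb6 stretch runs up to the start: those of Psmb5, Psmd8, Psme4, Psmb10 and Psme1 end 28, 29, 50, 53 and 135 bases before it. Capitals mark TGACNNNGC or the GC box GGGCGG on either strand.
Psmb6, chr11:70525107-70525356, plus strand: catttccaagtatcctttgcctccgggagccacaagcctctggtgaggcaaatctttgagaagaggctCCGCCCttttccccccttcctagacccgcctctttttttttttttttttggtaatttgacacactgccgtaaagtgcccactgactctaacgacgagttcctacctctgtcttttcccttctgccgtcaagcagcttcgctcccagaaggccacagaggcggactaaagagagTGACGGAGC
Psmb5, chr14:54618023-54618245, minus strand: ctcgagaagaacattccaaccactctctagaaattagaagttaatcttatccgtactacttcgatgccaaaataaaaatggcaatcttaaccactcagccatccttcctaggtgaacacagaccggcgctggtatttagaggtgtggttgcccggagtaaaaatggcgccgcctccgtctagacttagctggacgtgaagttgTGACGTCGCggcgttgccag
Psmb10, chr8:105938445-105938642, minus strand: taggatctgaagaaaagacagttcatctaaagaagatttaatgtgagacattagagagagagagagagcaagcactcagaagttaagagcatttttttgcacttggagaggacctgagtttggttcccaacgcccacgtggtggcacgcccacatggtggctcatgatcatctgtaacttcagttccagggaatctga
Psmd8, chr7:29180702-29180923, minus strand: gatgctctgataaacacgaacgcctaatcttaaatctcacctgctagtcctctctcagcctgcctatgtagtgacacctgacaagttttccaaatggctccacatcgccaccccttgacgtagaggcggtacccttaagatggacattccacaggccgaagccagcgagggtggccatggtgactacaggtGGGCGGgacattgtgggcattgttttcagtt
Psme4, chr11:30771525-30771725, plus strand: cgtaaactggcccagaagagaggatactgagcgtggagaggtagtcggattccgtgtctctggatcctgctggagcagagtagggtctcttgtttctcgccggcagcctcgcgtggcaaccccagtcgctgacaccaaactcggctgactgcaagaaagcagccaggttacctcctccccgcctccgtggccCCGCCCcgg
Psme1, chr14:55578249-55578359, plus strand: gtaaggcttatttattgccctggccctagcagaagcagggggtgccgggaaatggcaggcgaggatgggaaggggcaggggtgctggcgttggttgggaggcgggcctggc
The printed stretches of Psmb10 and Psme1 hold neither motif, and that of Psme1 lies inside the annotated span of its gene. A GGGCGG lies 109 bases before the Psme1 start, in the part of its window that is not printed. RefSeq windows were found for 40 of the 48 genes, and 250 bases before the start were searched on both strands. TGACNNNGC was present in 5 of 40 (12.5%), against 11.5% of 27025 genes with such a window. The GC box GGGCGG was present in 22 of 40 (55%), against 35.4% of all genes. CCAAT occurred in 14 of 40 (35%), against 37.5%. The core of the interferon-stimulated response element occurred in 3 of 40 (7.5%), against 3.46%. It was in 0 of the windows of the 3 induced subunits. The windows of Psmb8 and Psmb9 lie inside the annotated spans of their genes, so bases before those spans were not searched. TTCNNNGAA, bound by STAT factors, occurred in 2 of 40 (5%), against 8.13%. Such matches are descriptions of letters, not of binding.

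Most of the complex was present at moderate levels. They differed 3.2-fold among the constitutive beta subunits, 4.0-fold among the ATPases and 6.3-fold among the alpha subunits. Among the core genes, Psma6 (109 TPM) was the highest alpha subunit and Psma2 (17.4 TPM) the lowest. Of the constitutive beta subunits, Psmb6 was highest at 118.9 TPM and Psmb1 lowest at 37.4 TPM. The highest of all 48 genes was Psmc3, an ATPase of the regulatory base, with a mean of 142.3 TPM, and the lowest ATPase was Psmc6 at 35.5 TPM. The non-ATPase class spanned a wider range, from Psmd2, a scaffold of the base, at 67.4 TPM to Psmd5 at 2.96 TPM. Psmd5 acts as a base assembly chaperone. The width came from Psmd5, Psmd10 (3.54 TPM) and Psmd9 (6.56 TPM). The rest of the class lay between 22.4 TPM (Psmd14) and 67.4 TPM. Among the caps and the inhibitor, Psme1 had 71.3 TPM and Psmf1, which encodes the inhibitor PI31, had 5.57 TPM. The Psmg assembly chaperones ran from Psmg3 at 4.47 TPM to Psmg2 at 15.0 TPM. Psma8, known from testis, stood at 0.69 ± 0.354 CPM (SD, n = 4) in chow control and reached 1.12 CPM at most in any heart.

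**Figure D1:**
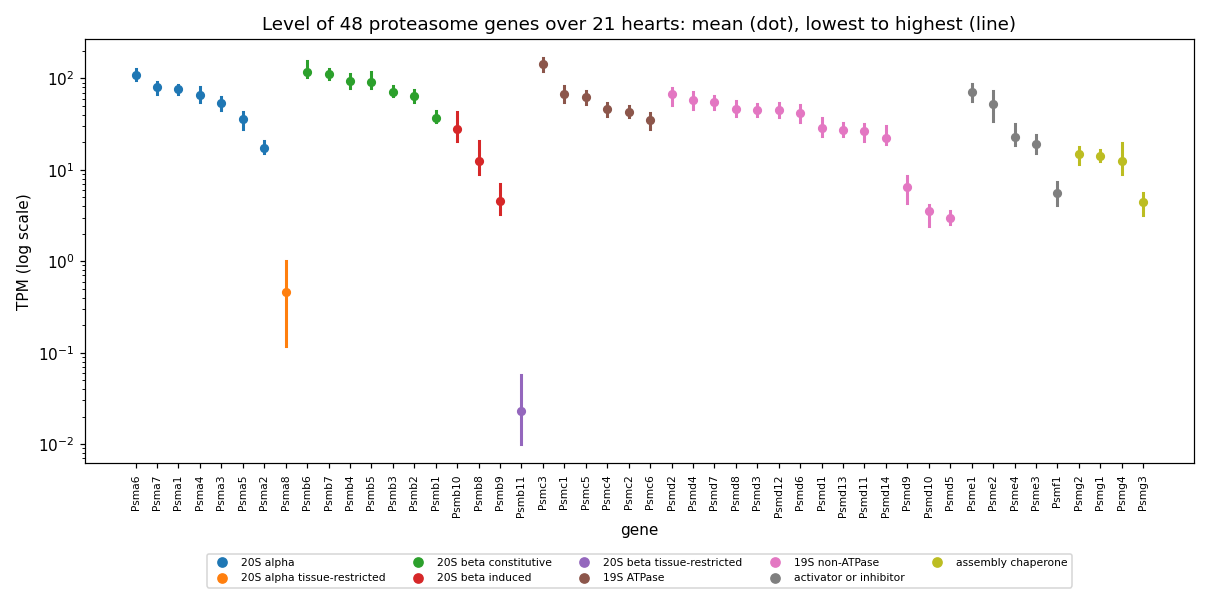
TPM on a log scale for each of the 48 genes, sorted within role classes. Dots are means over 21 hearts, and lines run from the lowest to the highest heart. Most means lie between 17.4 and 142.3 TPM, the induced Psmb8, Psmb9 and Psmb10 lie under their constitutive partners, and Psma8 and Psmb11 lie far under the rest (libraries at 0 cannot be drawn on this axis).

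Most of the genes were steady from heart to heart. For the 36 tested genes with a mean of at least 20 CPM, the median coefficient of variation over all 21 hearts was 7.27%, beside 10.1% for 5561 genes of that level. Psmc2, an ATPase, varied least (4.34%). The most variable were Psma8 (47.8%), the chaperone Psmg4 (18.9%), the 3 induced subunits Psmb8 (18.1%), Psmb9 (17.5%) and Psmb10 (17.3%), and the cap gene Psme4 (16.6%). Hearts of a group tended to be high or low for many proteasome genes together. High-fat renin replicate 2 was the highest of its group for 27 of 47 genes, a place it took for 19.5% of all genes tested. High-fat control replicate 3 was the lowest of its group for 26 of 47, and chow renin replicate 6 for 25 of 47, against 16.0% and 21.5% of all genes. High-fat control replicate 3 is the 1 heart of its group with atrial markers, whose part in its low values was not tested.

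Differences between groups were few and small. In all, 8 of the 47 tested genes passed the test in at least 1 of 6 comparisons: Psma4, Psmc6, Psmd1, Psmd8, Psmb10, Psme1, Psme2 and Psme4. Of all 15216 genes tested, 33.6% did. A gene was called when its adjusted p (edgeR's quasi-likelihood test, Benjamini-Hochberg adjustment over 15216 genes) was under 0.05. In these tests the largest called value in either direction was 0.53 on the log2 scale. On build GRCm38 these genes lie at chr9:54950790-54958030 (Psma4), chr14:45329788-45349705 (Psmc6), chr1:86064387-86139151 (Psmd1), chr7:29174188-29180701 (Psmd8), chr8:105935735-105938444 (Psmb10), chr14:55578123-55581529 (Psme1), chr14:55587441-55591113 (Psme2) and chr11:30771726-30880361 (Psme4). Psmd8, Psmb10 and Psme2 are on the minus strand and the others on the plus strand. The comparisons share groups, high-fat renin entering 3 of the pairwise ones and chow control also 3, so they are not independent.

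Between high-fat renin and chow control, 3 genes were called, Psma4 and Psmd1 higher and Psme1 lower, where 8.29% of all genes tested were called (4.05% higher and 4.25% lower, and 12.0% in either direction among genes of at least 20 CPM). The median log2 fold change of the 47 was 0.07, beside 0.01 for all genes. By class, 13 of 14 non-ATPase (Psmd) genes and 6 of 7 alpha subunits had values above 0, nearly all without passing the test. Values were under 0 for 5 of 7 constitutive beta subunits, none of which passed. The libraries of the 2 groups did not overlap for 3 genes in the upward direction (Psma4, Psmc6 and Psmd1), as for 4.98% of all genes. They did not overlap for Psme1 in the downward direction, as for 5.07%.

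Chow renin and chow control differed in 1 proteasome gene, Psme1, which was lower, while 13.5% of all genes tested were called (3.36% lower, and 9.24% in either direction among genes of at least 20 CPM). The median of the 47 was -0.01, beside -0.03 for all genes. Between high-fat control and chow control edgeR's quasi-likelihood test called 0 of 47, with 0 at an unadjusted p under 0.05 and 0 by DESeq2. Diet alone moved few genes of any kind past the test (0.0657% of all genes). Here the 47 had a median of 0.02 and all genes 0.01.

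Against high-fat control, high-fat renin had 4 genes higher (Psmb10, Psmc6, Psmd1 and Psmd8) and 2 lower (Psme1 and Psme2), and 11.1% of all genes were called (6.07% higher and 5.08% lower, and 18.3% in either direction among genes of at least 20 CPM). The median of the 47 was 0.03, beside -0.01. Values lay above 0 for 13 of 14 non-ATPase (Psmd) genes, with a class median of 0.11. They lay under 0 for 5 of 7 constitutive beta subunits (median -0.06) and 4 of 4 Psmg chaperones (median -0.09). Against chow renin, high-fat renin had 5 genes higher (Psma4, Psmb10, Psmd1, Psmd8 and Psme4), where 22.6% of all genes were called (9.80% higher, and 23.1% in either direction among genes of at least 20 CPM). The interaction, which subtracts the renin effect seen on chow from that seen with high-fat feeding, was positive for 2 genes, Psmb10 and Psme4, where 10.4% of all genes were called (3.14% positive, and 7.89% in either direction among genes of at least 20 CPM). By edgeR's quasi-likelihood test on all 21 hearts, the shares of proteasome genes called were near or under those of all genes in each comparison. In the diet comparison both were close to 0. Other tools called more between high-fat renin and high-fat control. Limma on log2(TPM + 1) called 13 of 47 (27.7%), 12 of them higher, where 11.2% of all genes were called, and DESeq2 called 10 (21.3%), where 15.2% of all genes were. Without the 5 hearts with atrial markers, Psme1 alone was called against chow control in high-fat renin and in chow renin. In that fit Psme1, Psmb10, Psme4 and Psmg1 were called against high-fat control, Psmb10, Psmd8 and Psme4 against chow renin, and Psme4 in the interaction. The calls of Psma4, Psmc6, Psmd1 and Psme2 did not pass there (adjusted p from 0.0551 to 0.204), nor did Psmd8 against high-fat control (0.0637) or the Psmb10 interaction (0.48, 0.0685).

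**Figure D2:**
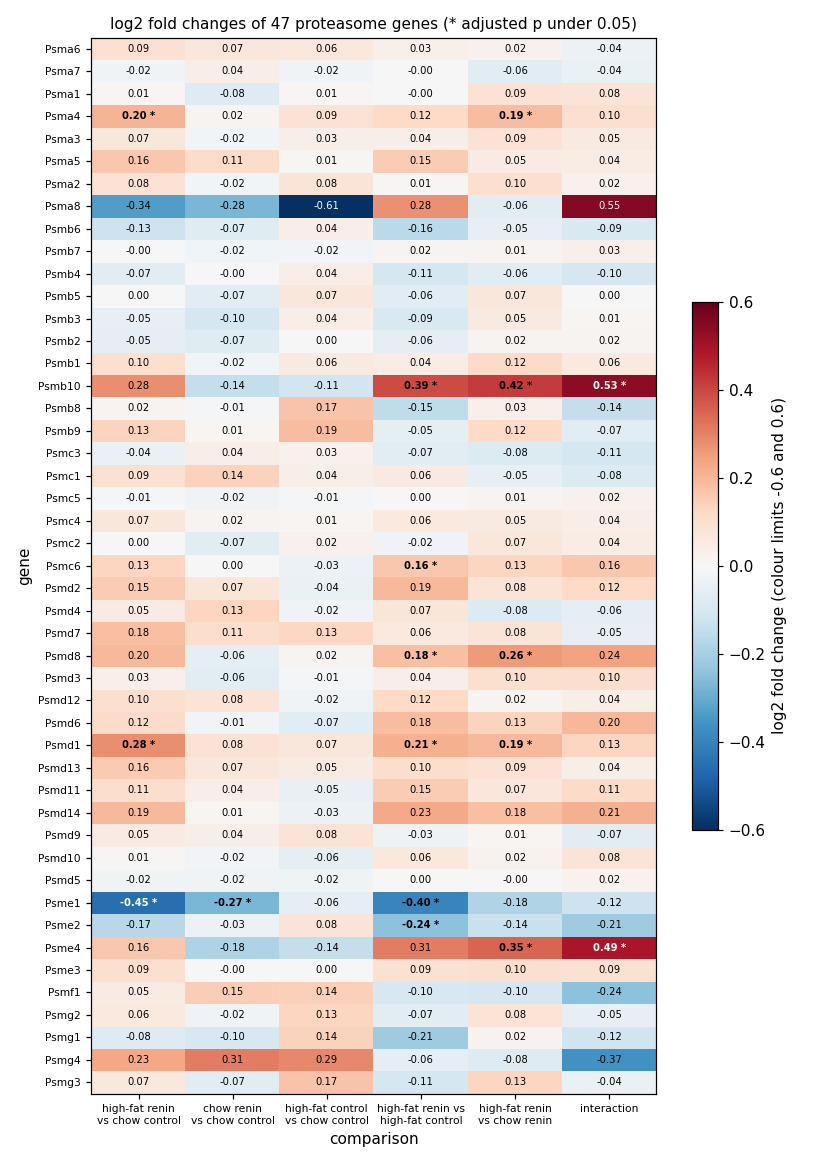
log2 fold changes of the 47 tested genes (rows, by role) in the 6 comparisons (columns). Stars mark an adjusted p under 0.05. Psme1 is negative in all 6 columns and starred in 3, Psmb10 is starred in the 3 right-hand columns, and most other cells lie within 0.2 of 0.

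Psme1, a subunit of the ring-shaped cap that opens the core without ATP, gave the clearest difference, a lower level in renin hearts. Chow control hearts had 85.3, 81.0, 72.3 and 89.1 CPM, and high-fat renin hearts had 57.7, 59.9, 60.8, 66.2 and 54.3 CPM. High-fat control ran from 69.5 through a median of 77.7 to 86.7 CPM, and chow renin from 63.3 through 66.7 to 75.4 CPM. Every high-fat renin heart was lower than every heart of either control group, while chow renin overlapped both. Lower libraries without overlap against high-fat control were found for Psme1 alone among the 47, and for 1.52% of all genes. By edgeR's quasi-likelihood test, the log2 fold change of high-fat renin was -0.45 (SE 0.08, adjusted p = 0.0011) against chow control. It was -0.40 (SE 0.07, adjusted p = 0.0015) against high-fat control, and chow renin differed from chow control by -0.27 (SE 0.07, adjusted p = 0.0114). Between high-fat renin and chow renin the value was -0.18 (adjusted p = 0.0605), and the interaction, -0.12, did not pass (adjusted p = 0.517). The first and second of these calls were kept in 31 of 32 alternatives each. They were lost only with a clock-gene score as a covariate, where the fold changes were -0.31 and -0.31 (adjusted p = 0.593 and 0.306). The call in chow renin was kept in 27 of 32. It was lost without chow control replicate 1 (adjusted p = 0.0599) or replicate 4 (0.0647), by limma on log2(TPM + 1) (-0.15, 0.246), and with the clock score (-0.16, 0.411) or the central nervous score described further on (-0.08, 0.964) as a covariate. The clock score, day genes minus night genes in mean log2 CPM, had a lower mean in renin hearts on either diet. It was 3.22 ± 0.449 (n = 5) in high-fat renin and 3.38 ± 0.168 (n = 6) in chow renin, against 4.05 ± 0.131 (n = 4) in chow control and 3.75 ± 0.108 (n = 6) for high-fat control. Its part in these results cannot be told apart from that of renin. Summed cardiomyocyte markers moved the same way. They ran from 53370 to 64908 CPM in chow control, 50687 to 59172 in high-fat control, 49344 to 51909 in chow renin and 43091 to 50523 in high-fat renin. Myh6 held much of the sum, with means of 32912 of 60736 CPM in chow control. Of the 7 markers, 5 were called lower in high-fat renin against each control group, and 2 in chow renin against chow control. Ryr2 was above 0 in high-fat renin against each control group, and Actc1 against high-fat control. The part of these markers was not tested. The 3′ neighbour Emc9, which overlaps Psme1 by 14 bases on the opposite strand, was also lower against high-fat control (-0.37, adjusted p = 0.0248).

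Psme2, the partner of Psme1 in the same cap, was lower in high-fat renin than in high-fat control. High-fat renin hearts had 28.9, 26.8, 30.1, 32.8 and 30.0 CPM, and high-fat control ran from 31.4 through a median of 33.9 to 45.1 CPM. The groups overlapped at 1 high-fat renin heart, and the top value came from high-fat control replicate 6. That heart was also the highest of its group in the mean log2 CPM of leukocyte (3.26), antigen-processing (5.61), fibroblast (6.28) and endothelial (7.78) genes, whose part in its Psme2 level was not tested. The log2 fold change was -0.24 (SE 0.08, adjusted p = 0.0441 by edgeR's quasi-likelihood test). Without high-fat control replicate 6 it was -0.16 (adjusted p = 0.0902), and 9 other hearts also ended the call when left out: high-fat control replicates 4 and 5, high-fat renin replicates 1, 2, 3 and 5, chow control replicate 3 and chow renin replicates 2 and 4 (adjusted p from 0.0504 to 0.127). Of all 32 alternatives 15 kept the call, which was also lost without a filter, by limma, after thinning, with only the compared groups, with either score as a covariate (0.0505 to 0.744) and with the replicate number as a block (-0.21, 0.0696). Psme2 shares 66.2% of its 31-base stretches with other genes, among them Psme2b, so its reads could be split between copies, though Psme2b held reads equal to 2.62% of those of Psme2. Psme3, a nuclear cap, had 52.5 ± 4.44 CPM (n = 4) in chow control and 56.1 ± 1.57 (n = 5) in high-fat renin, and was called in 0 of 6 comparisons. The inhibitor gene Psmf1 was not called either, with 13.8 ± 1.79 CPM (n = 4) in chow control and 14.2 ± 0.654 (n = 5) in high-fat renin.

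Psme4, which encodes the single-chain cap PA200, was higher in high-fat renin than in chow renin but was not called against either control group. High-fat renin hearts had 215.1, 255.6, 155.6, 170.8 and 222.2 CPM, and chow renin ran from 148.3 through a median of 155.2 to 181.1 CPM. High-fat renin replicates 1, 2 and 5 lay above every chow renin heart, and replicates 3 and 4 lay among them. Chow control hearts were themselves split, at 203.4, 209.4, 159.3 and 155.9 CPM, and high-fat control ran from 151.0 to 184.6 CPM. The log2 fold changes of high-fat renin were 0.16 against chow control and 0.31 against high-fat control, and neither passed. The log2 fold change of high-fat renin against chow renin was 0.35 (SE 0.11, adjusted p = 0.0212, edgeR's quasi-likelihood test), and the interaction was 0.49 (SE 0.16, adjusted p = 0.0456). The first was lost without high-fat renin replicate 1, 2 or 5 or chow renin replicate 1 or 3 (adjusted p from 0.0609 to 0.0909), by limma (0.182) and with the clock score as a covariate (0.0556). The interaction held in 10 of 31 alternatives, and upper-quartile or RLE factors, no filter, limma, thinning and leaving out mitochondrially encoded genes each ended it (adjusted p from 0.0521 to 0.074). It was lost without any of 14 hearts: chow control 1 or 2, chow renin 1, 3, 4, 5 or 6, high-fat control 1, 2, 3 or 6, or high-fat renin 1, 2 or 5 (adjusted p from 0.0602 to 0.146).

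At the RNA level, each induced catalytic subunit had the smaller share of the pair it forms with its constitutive partner. By TPM, Psmb9 made up 3.69% ± 0.618 (SD, n = 21) of Psmb9 plus Psmb6, the beta1 pair. Psmb8 made up 11.8% ± 1.46 of Psmb8 plus Psmb5 (beta5), and Psmb10 19.8% ± 2.75 of Psmb10 plus Psmb7 (beta2). Part of the Psmb8 and Psmb9 reads came from transcripts annotated as retained introns. Protein and assembled complexes were not measured, so the make-up of the core was not tested. For Psmb10 the share was 22.3% ± 3.52 (n = 5) in high-fat renin and 19.3% ± 2.69 (n = 6) without renin on that diet. On chow it was 18.2% ± 1.62 (n = 6) with renin and 19.6% ± 1.01 (n = 4) without.

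**Figure D3:**
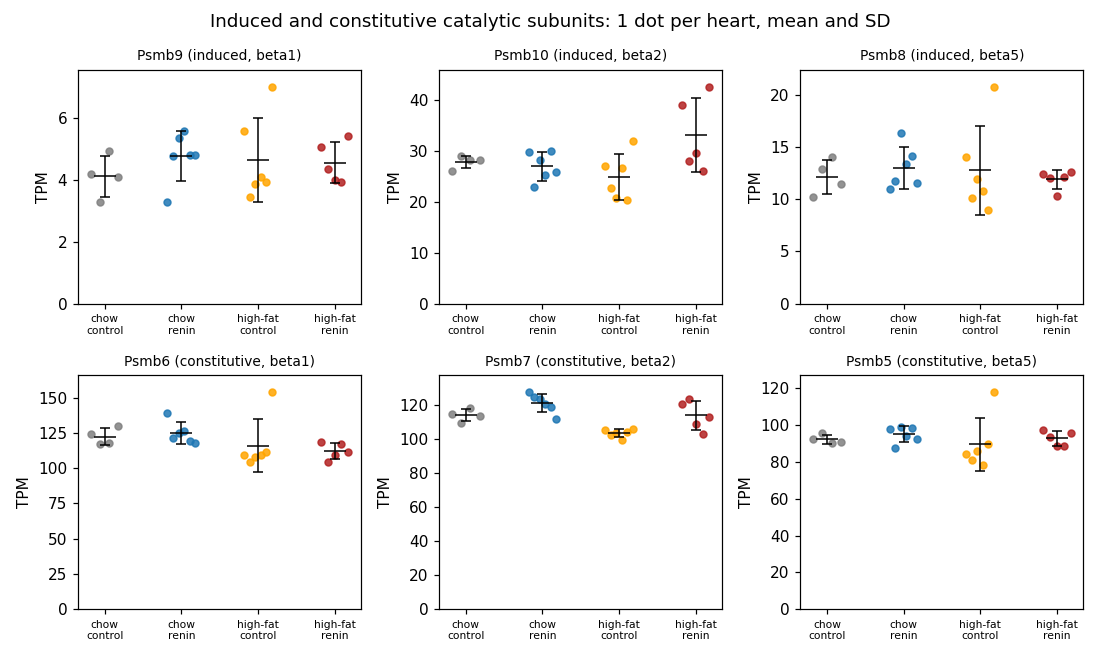
TPM per heart (dots) with mean and SD (bars) for the induced catalytic subunits (upper row) and the constitutive subunits they replace (lower row), by group. Psmb10 has its highest hearts in high-fat renin, and the highest Psmb8, Psmb9, Psmb5 and Psmb6 values come from a single high-fat control heart.

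Among the 3 induced subunits, only Psmb10 was called. High-fat renin hearts had 39.9, 33.2, 29.9, 27.4 and 38.9 CPM, and chow control hearts 27.9, 27.4, 27.9 and 28.6 CPM. Chow renin ran from 23.3 through a median of 24.7 to 29.2 CPM, and high-fat control from 19.3 through 26.2 to 31.1 CPM. High-fat renin replicates 1, 2 and 5 lay above all hearts of the other groups, replicate 3 lay within the range of high-fat control alone, and replicate 4 overlapped all 3 groups. Replicates 1, 2 and 5 also had the lowest clock scores of high-fat renin (2.51, 3.13 and 3.28, against 3.62 and 3.57 in replicates 3 and 4). Their mean log2 CPM of cardiomyocyte markers was the lowest as well (11.95, 11.92 and 11.92, against 12.05 and 12.09). The part of the cardiomyocyte markers in the Psma4, Psmb10, Psme4, Psmd1 and Psmd8 values of these hearts was not tested. With the clock score as a covariate, the Psmb10 call against chow renin (0.38, adjusted p = 0.011) and both interactions (0.56, 0.0124 for Psmb10 and 0.53, 0.018 for Psme4) still passed. With the central nervous score neither interaction passed (0.23 for Psmb10 and 0.49 for Psme4, adjusted p = 1.0 for both). Against chow renin the log2 fold change was 0.42 (SE 0.10, adjusted p = 0.00375, edgeR's quasi-likelihood test), and against high-fat control 0.39 (SE 0.10, adjusted p = 0.0164). The interaction was 0.53 (SE 0.15, adjusted p = 0.0207): the value for renin was -0.14 on chow (adjusted p = 0.462) and 0.39 with high-fat feeding. Against chow control the value was 0.28 and did not pass (adjusted p = 0.137). The call against chow renin was kept whichever heart was left out. That against high-fat control was lost without high-fat renin replicate 1 (adjusted p = 0.0686) or 5 (0.064), with only the compared groups (0.39, adjusted p = 0.0827) and with the clock score as a covariate (0.27, adjusted p = 0.633). The interaction was lost without high-fat renin replicate 1 (0.0546). On log2(TPM + 1) with limma the value against chow renin was 0.26 and did not pass (adjusted p = 0.162), nor did the interaction (0.44, adjusted p = 0.163).

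Psmb8 and Psmb9 were not called in any of the 6 comparisons. In high-fat hearts Psmb8 had 10.9 ± 1.1 CPM (n = 5) with renin and 12.1 ± 3.2 (n = 6) without, and in chow hearts 10.7 ± 1.46 (n = 6) with renin and 10.8 ± 1.45 (n = 4) without. Psmb9 had 6.24 ± 0.631, 6.47 ± 1.41, 5.75 ± 0.993 and 5.68 ± 1.11 CPM in the same order. Their log2 fold changes between high-fat renin and high-fat control were -0.15 (SE 0.14) and -0.05 (SE 0.15), where Psmb10 had 0.39. Psmb9 overlaps Tap1, a peptide transporter gene, by 212 bases, so their reads may not be fully separated.

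The constitutive partners of these subunits were not called in any comparison. Psmb7, the beta2 subunit, had 123.5 ± 3.57 CPM (n = 4) in chow control and 123.4 ± 9.98 (n = 5) in high-fat renin. Psmb5, the beta5 subunit, had 68.8 ± 2.74 and 68.9 ± 2.97 CPM in these groups. Psmb6, the beta1 subunit, had 75.4 ± 5.48 and 69.1 ± 3.17 CPM, a log2 fold change of -0.13 (SE 0.08, adjusted p = 0.353 by edgeR's quasi-likelihood test). In high-fat control Psmb6 had 77.5 ± 10.3 CPM (n = 6), with 95.7 CPM in replicate 6, and against that group the value of high-fat renin was -0.16 (SE 0.07, unadjusted p = 0.031, adjusted p = 0.14).

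Other genes and cells tied to the immunoproteasome gave few calls. Of 10 antigen-processing partners (such as Tap1, Nlrc5, Irf1 and B2m), edgeR's quasi-likelihood test called 0 in each of the 6 comparisons, with between 0 and 2 at an unadjusted p under 0.05. DESeq2 called 1 of them between high-fat renin and high-fat control. Of 8 leukocyte markers 7 were tested (Cd3e was not), and Ptprc alone was called, higher in high-fat renin than chow renin (0.43, adjusted p = 0.047). The summed leukocyte level was 95.9 to 120 CPM in high-fat renin, 84.2 to 111 in chow renin, 92.9 to 168 in high-fat control and 86.2 to 138 in chow control, so all groups overlapped. Values were above 0 for 6 of 7 leukocyte markers between high-fat renin and chow renin (median 0.24, with 2 at an unadjusted p under 0.05) and for 6 of 7 in the interaction (median 0.23, with 0), both comparisons in which Psmb10 was called. Against high-fat control, where Psmb10 was also called, it was 3 of 7 (median -0.01). Their part in the Psmb10 values was not tested. Kdr, 1 of 3 endothelial markers, was higher in high-fat renin than in chow renin (0.53, adjusted p = 0.0171). In that comparison 3 of 3 endothelial markers (median 0.20) and 4 of 4 fibroblast markers (median 0.31) had values above 0. Of the fibroblast markers, edgeR called 0 and DESeq2 called 1. The part of these markers in the proteasome calls was not tested. Central nervous markers stood apart in chow renin, with a summed level of 178 to 296 CPM against 41.2 to 81.0 CPM in the other groups, and 9 of 10 were called higher than in chow control. When the mean log2 level of the central nervous markers was added to the fit, no call against chow renin remained (adjusted p = 0.998 for Psmb10, Psmd8, Psma4, Psmd1 and Psme4), the log2 values running from 0.04 for Psmd1 to 0.34 for Psme4. The score was high in chow renin alone, so it and chow renin cannot be told apart.

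Among the subunits of the regulatory particle, Psmd8, a lid subunit needed to complete its assembly, was higher in high-fat renin than in chow renin or high-fat control. High-fat renin hearts had 69.0, 72.6, 59.8, 61.4 and 68.2 CPM, and chow renin ran from 52.9 through a median of 54.7 to 59.9 CPM. A single chow renin heart, replicate 2, reached the lowest high-fat renin value. The log2 fold change was 0.26 (SE 0.06, adjusted p = 0.00182, edgeR's quasi-likelihood test) against chow renin, a call kept whichever heart was left out but lost by limma (0.14, adjusted p = 0.149). Chow control hearts had 57.8, 61.3, 56.7 and 55.3 CPM, and against them the value was 0.20 and did not pass (adjusted p = 0.0562). Against high-fat control, which ran from 53.5 through 59.5 to 61.7 CPM, it was 0.18 (SE 0.06, adjusted p = 0.0416). That call was kept in 14 of 32 alternatives. It was lost without high-fat renin replicate 1, 2 or 5, high-fat control replicate 1, 2 or 3, chow control replicate 1 or 2, or chow renin replicate 1, 3 or 5 (adjusted p from 0.0507 to 0.136). Upper-quartile or RLE factors, no filter, thinning, only the compared groups and either score as a covariate also ended it (adjusted p from 0.0516 to 0.78).

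Psmd1, a large scaffold subunit of the base, was called in 3 comparisons. High-fat renin hearts had 116.6, 129.7, 106.5, 100.8 and 115.6 CPM, and chow control hearts 94.4, 92.9, 94.6 and 93.8 CPM. Chow renin ran from 94.9 through 99.1 to 104.9 CPM and high-fat control from 88.8 through 96.0 to 110.9 CPM. High-fat renin lay above all chow control hearts, its replicate 4 lay within both other groups, and its replicate 3 lay within high-fat control. Chow renin also lay above chow control without overlap (as did 10.4% of all genes) but did not pass the test (0.08, adjusted p = 0.503). The fold change of high-fat renin was 0.28 (SE 0.07, adjusted p = 0.0197, edgeR's quasi-likelihood test) against chow control, 0.21 (SE 0.06, adjusted p = 0.0361) against high-fat control and 0.19 (SE 0.06, adjusted p = 0.0327) against chow renin. Leaving out high-fat renin 1 or 2, or chow control 1, 2 or 4, ended the first call (adjusted p from 0.0567 to 0.0669), as did the clock score as a covariate (0.812). The second was lost without chow control replicate 1 or 2, chow renin 1, 3 or 5, high-fat control 3, 4, 5 or 6, or high-fat renin 1, 2 or 5 (0.0508 to 0.133), without a filter, with only the compared groups or with either score (0.0621 to 0.758). The third was lost without chow control 1 or 2, chow renin 1, 3, 4 or 5, high-fat control 3, or high-fat renin 1, 2 or 5 (0.0525 to 0.133), with upper-quartile factors, no filter or limma, without mitochondrially encoded genes and with either score (0.0512 to 0.998).

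Psmc6, an ATPase of the base, had even levels in high-fat renin, at 80.8, 83.1, 79.5, 78.6 and 78.4 CPM. High-fat control ran from 64.5 through 72.4 to 74.7 CPM, and chow control hearts had 75.9, 72.0, 72.0 and 72.7 CPM. Every high-fat renin heart was above every heart of the other 3 groups, chow renin reaching 77.0 CPM. Higher libraries without overlap against high-fat control were found for Psmc6 alone of the 47, and for 1.95% of all genes, and against chow renin for Psma4 and Psmc6, and for 5.55%. The log2 fold change against high-fat control was 0.16 (SE 0.05, adjusted p = 0.0346, edgeR's quasi-likelihood test). It was 0.13 against chow control (adjusted p = 0.147) and 0.13 against chow renin (adjusted p = 0.0607). The call was lost without any of 11 hearts: chow control 1 or 2, chow renin 1, 3 or 5, high-fat control 3, 5 or 6, or high-fat renin 1, 2 or 5 (adjusted p from 0.0503 to 0.112). It was also lost with upper-quartile factors, no filter, only the compared groups, the clock score (0.0622 to 0.606) and the replicate number as a block (0.14, 0.0525), so that 16 of 32 alternatives kept it. Psmd14, the lid deubiquitinase that removes ubiquitin chains, came close in the same comparison (0.23, SE 0.08, adjusted p = 0.0539) and is named here after its value was seen.

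Psma4, an alpha ring subunit, had 68.4, 70.9, 62.7, 60.9 and 66.1 CPM in high-fat renin and 57.3, 56.0, 55.4 and 59.7 CPM in chow control. Chow renin ran from 55.6 through 58.2 to 59.3 CPM, and high-fat control from 55.3 through 61.4 to 64.7 CPM. High-fat renin lay above all hearts on chow and overlapped high-fat control. Its log2 fold change was 0.20 (SE 0.06, adjusted p = 0.0338, edgeR's quasi-likelihood test) against chow control and 0.19 (SE 0.05, adjusted p = 0.0126) against chow renin. The first was lost without any chow control heart, chow renin 3 or 5, or high-fat renin 1, 2 or 5 (adjusted p from 0.0503 to 0.108), without a filter, with only the compared groups and with the clock score (0.0812 to 0.828). The second was lost without chow renin 1 or 3 or high-fat renin 1 (0.057 to 0.07), with upper-quartile factors (0.067) and by limma (0.388).

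**Figure D4:**
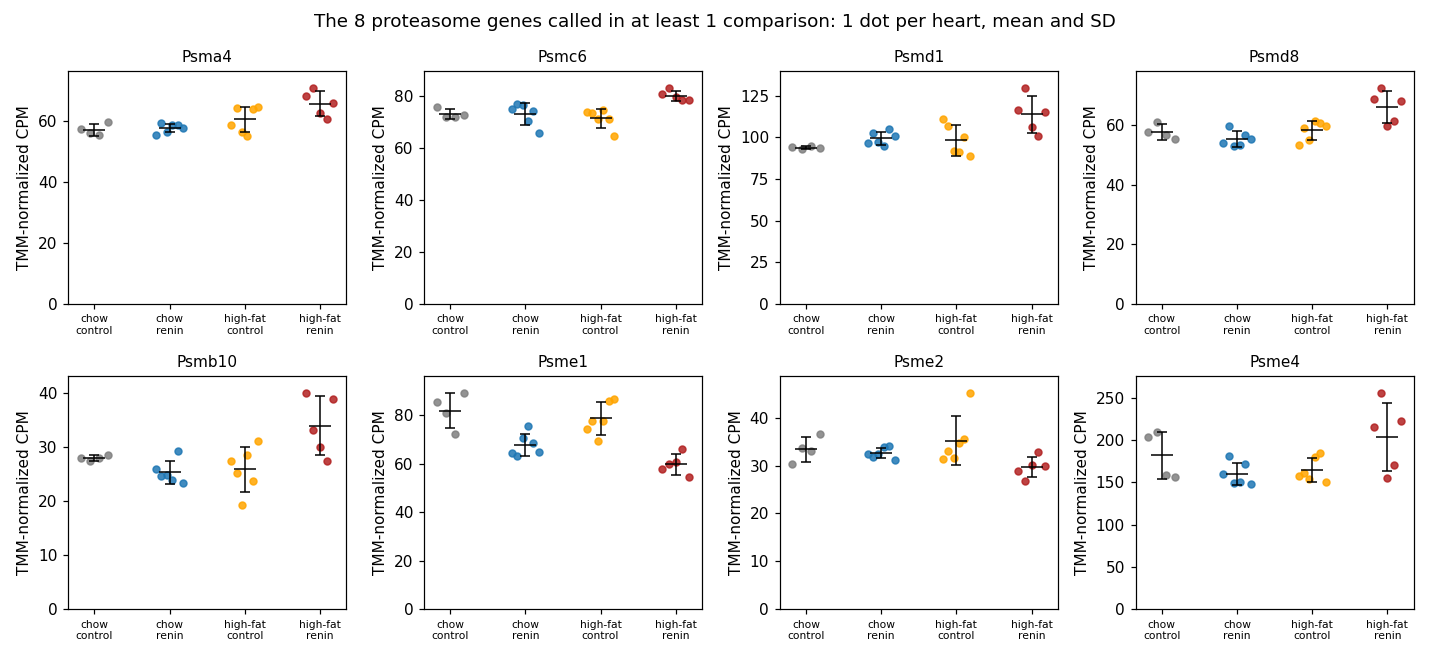
TMM-normalized CPM per heart (dots), with mean and SD (bars), for the 8 genes called in at least 1 comparison, by group, on axes from 0. High-fat renin hearts lie under both control groups for Psme1, at 54.3 to 66.2 CPM, where replicate 4 overlaps chow renin, and above all others for Psmc6, at 78.4 to 83.1 CPM. Within high-fat renin, Psma4, Psmb10, Psme4, Psmd1 and Psmd8 have replicates 1, 2 and 5 above replicates 3 and 4.

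Factors that work with the proteasome showed a similar scatter of small differences. Of 18 associated genes 17 were tested. In high-fat renin against chow control 2 rose, Nfe2l1, the membrane-bound transcription factor of proteasome genes (0.30, SE 0.09, adjusted p = 0.0315, edgeR's quasi-likelihood test), and Ubqln4, a shuttle of ubiquitinated proteins (0.24, adjusted p = 0.0465). Nfe2l1 stood at 822 ± 62.6 CPM (n = 5) in high-fat renin and 812 ± 101 (n = 6) in high-fat control, beside 683 ± 52.1 (n = 6) in chow renin and 667 ± 22.6 (n = 4) in chow control. The means of both high-fat groups were similar, though high-fat control did not pass against chow control (0.28, adjusted p = 0.193). Against high-fat control, Ubqln4 (0.23, adjusted p = 0.0256) and Usp14, a deubiquitinase bound to the regulatory particle (0.32, adjusted p = 0.0263), rose in high-fat renin. Against chow renin, Ubqln4 (0.21, adjusted p = 0.0264), Nfe2l1 (0.27, adjusted p = 0.0141) and Ube3c, a ligase bound to the proteasome (0.32, adjusted p = 0.0242), rose and Ubqln2 fell (-0.29, adjusted p = 0.0188). None of the 17 was called in the effects of renin or diet on their own, in which 0 and 1 had an unadjusted p under 0.05 and DESeq2 called 0.

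The ubiquitin genes and activating enzymes (6 genes) had 0 calls in all 6 comparisons by edgeR's quasi-likelihood test and by DESeq2, with 0 or 1 at an unadjusted p under 0.05. Of 10 muscle ubiquitin ligases and adaptors, Fbxl22, a sarcomeric F-box protein, fell in chow renin (-0.75, adjusted p = 0.000767), with 30.7 ± 3.56 CPM (n = 6) against 51.8 ± 11.4 (n = 4) in chow control. Klhl40, a stabiliser of thin filament proteins, had a higher level in high-fat renin than in high-fat control (0.50, adjusted p = 0.00692), where Stub1, a chaperone-linked ligase, fell (-0.25, adjusted p = 0.0451). Between high-fat renin and chow renin 2 of 10 were called, both higher, Klhl40 (0.34, adjusted p = 0.0268) and Fbxo30, a ligase induced in muscle atrophy (0.32, adjusted p = 0.0333). There 8 of 10 had values above 0, with a median of 0.20, and DESeq2 called 3. Of 5561 genes of at least 20 CPM, 3737 had values above 0 there (median 0.07), and 22.6% of all genes tested were called. The interaction was positive for Klhl40 (0.51, adjusted p = 0.0472). In high-fat hearts Klhl40 had 20.5 ± 2.08 CPM (n = 5) with renin and 14.6 ± 1.8 (n = 6) without, and in chow hearts 16.2 ± 2.31 (n = 6) with renin and 16.3 ± 3.1 (n = 4) without. The other atrophy ligases Trim63 and Fbxo32 did not pass in any comparison, and their smallest adjusted p was 0.0765 (Trim63, high-fat renin against chow control).

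In the authors' deposited table, which gives a comparison headed HFD+virus without naming its reference group, 4 of 47 proteasome genes had an adjusted p under 0.05 (8.51%), beside 8.04% of 16122 genes. The authors' deposited table lists Psme1 at -0.40 (adjusted p = 3.23e-05), Psmd1 at 0.24 (0.0087), Psma4 at 0.18 (0.0118) and Psmc6 at 0.17 (0.0202) on the log2 scale.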

How the data were processed

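RNA was measured in 21 hearts, and the titles in the labels gave each heart's group and replicate. Per the submitters' processing notes, Salmon 1.10.2, DESeq2 1.40.2 and build GRCm38 (mm10) were used, with no role or options given. For each library the authors deposited estimated counts per transcript, not normalized, and TPM, per the file headers. The deposited gene matrix holds a signal per library (TPM times 1 factor per library for most genes), and the authors' log2 fold change and adjusted p-value, per the file headers.

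Of 119215 transcripts, 98.0% were matched to GENCODE M21 (GRCm38). Gene sums of these estimates were rounded to whole counts, in place of the raw counts that the tests had been laid out for. Filtering on low counts left 15216 of 23855 genes, holding 99.96% of reads. Differences were tested with edgeR 4.0.16 (R 4.3.3): TMM factors (0.886 to 1.09), a term per group over 21 libraries, quasi-likelihood F test, two-sided, with Benjamini-Hochberg adjustment over all genes tested. Standard errors are the absolute fold change over the square root of F. The fit was tested on simulated data. Alternatives were DESeq2 1.42.0, limma 3.58.1, other scalings and filters, thinning, score covariates, a replicate block and leaving out each heart.

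The members and gene lists were chosen with earlier results of these data known. Values are given for the catalytic subunits, caps and inhibitor, for all called members, for the highest and lowest of each class and for tissue-restricted members. Called genes of the associated, ubiquitin, ligase and antigen-processing lists are named, and marker lists are given mainly by counts and summed levels. The series description gives 4 to 6 mice per group, as many as there are libraries, and each library carries a code of its own, so libraries were taken as separate animals. Intervals were not drawn from the totals, whose precision would cover counting error only.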

Additional observations from a re-analysis of the deposited data

Results flagged for a closer look

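For 15 named genes, the highest and lowest heart of each group was compared with the spread of its group, 60 sets of values in all. In 6 sets a heart stood apart, where chance gives about 1 in 20 (3 of 60). In high-fat control, replicate 6 held 3 of them: Psme2 at 45.1 CPM (next 35.5), Psmb8 at 18.3 CPM (next 12.7) and, as the lowest heart, Psmc6 at 64.5 CPM (next 71.1). That heart also had the highest leukocyte, antigen-processing, fibroblast and endothelial scores of its group. Psmf1 reached 17.7 CPM in high-fat control replicate 5 (next 15.2). In high-fat renin, Psmb6 was 74.8 CPM in replicate 4 (next 68.1) and Psmb7 was 140.8 CPM in replicate 2 (next 121).

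By the interaction term of edgeR's quasi-likelihood test, the effect of renin differed between diets for 2 of the 47 genes, where 10.4% of all genes tested were called. It was 0.53 for Psmb10 (adjusted p = 0.0207) and 0.49 for Psme4 (adjusted p = 0.0456) on the log2 scale. Over the alternatives the adjusted p ran from 0.0062 to 1.0 for Psmb10, kept in 28 of 31, and from 0.00898 to 1.0 for Psme4, kept in 10 of 31. High-fat renin replicates 1, 2 and 5 carry the high values of both genes, and had the lowest clock and cardiomyocyte scores of their group.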

How the results depend on the processing

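No call changed direction in any alternative, and which comparison had the most calls varied between them. The number of proteasome genes called moved by over 1.5 times in these settings. With the clock score as a covariate it was 0 between high-fat renin and chow control, 0 between chow renin and chow control, 0 between high-fat renin and high-fat control, and 3 between high-fat renin and chow renin, with 1, 2, 2 and 7 at an unadjusted p under 0.05 in edgeR. With the central nervous score it was 0 for chow renin against chow control, 3 for high-fat renin against high-fat control, 0 against chow renin and 0 for the interaction (2, 14, 2 and 2 unadjusted). Without a filter it was 2 between high-fat renin and high-fat control and 1 for the interaction. Limma on log2(TPM + 1) gave 13 between high-fat renin and high-fat control, 3 against chow renin (Psmc3, Psme1 and Psme2, all lower, none shared with the 5 reported) and 0 for the interaction (5 unadjusted). Between chow renin and chow control it called 1, Psmd4 and not Psme1. Using only the compared groups gave 1 and DESeq2 gave 10 between high-fat renin and high-fat control. Upper-quartile factors, RLE factors, thinning to the smallest library and leaving out mitochondrially encoded genes gave 1 each for the interaction. Without the 5 hearts with atrial markers, chosen after the data were seen, it was 1 between high-fat renin and chow control, 3 between high-fat renin and chow renin and 1 for the interaction (8, 6 and 5 unadjusted). The cause of these shifts was not tested. Apart from limma and DESeq2 between high-fat renin and high-fat control, the shares of all genes called in these settings are not given here. Nor are they given for the fits below that leave out a heart or use the replicate block. Such counts therefore do not show whether proteasome genes shifted more than other genes. Leaving out each heart gave 1 to 5 calls between high-fat renin and chow control, 0 to 1 between chow renin and chow control, 0 to 0 between high-fat control and chow control, 1 to 11 between high-fat renin and high-fat control, 2 to 7 against chow renin and 0 to 3 for the interaction. The replicate block gave 3, 1, 0, 5, 5 and 3 calls in the same order. Between high-fat renin and high-fat control it kept 4 of the 6, without Psmc6 and Psme2, and added Psme4. Same-numbered hearts had a median correlation of 0.08 over 28 pairs (-0.23 to 0.42, 11 over 0.1), so the numbers were not taken as pairs. Psmb11 did not enter the tests, and Psma8, at 1.12 CPM or less, had few reads behind its values.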
